A study of Mus musculus with 6 samples.

Results

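The proteasome genes were taken as the genes of the deposited table whose symbol is Psma, Psmb, Psmc, Psmd, Psme, Psmf or Psmg followed by a number, with at least 10 counts summed over the 5 libraries. Of the 34745 genes listed, 49 carried such a symbol and 48 reached 10 counts. They comprised 15 genes of the 20S core, the 3 inducible catalytic subunits of the immunoproteasome, 9 genes of the base and 8 of the lid of the 19S regulatory particle, 5 activators with 1 inhibitor, and 7 assembly chaperones. The member with the fewest counts was Psma8, the testis form of an alpha subunit, with 16 and 3 counts after APAP and 7, 10 and 18 counts after saline. The gene that missed the minimum was Psmb11, the catalytic subunit of the thymus, with 1 count in APAP replicate 3 and 0 in the other libraries.

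The proteasome degrades proteins that carry a chain of ubiquitin. Its 20S core is a barrel of alpha rings, which form the gate, and beta rings, which hold the proteolytic sites. The 19S particle on its ends binds ubiquitin, removes it (lid) and unfolds the substrate with a ring of ATPases (base), and the whole is called the 26S proteasome. In cells exposed to interferon, inducible catalytic subunits replace the constitutive ones in newly made cores, which alters the peptides that are offered to T cells.

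The question addressed here was how these genes were expressed in mouse liver after an overdose of APAP (acetaminophen), which injures centrilobular hepatocytes. WT mice were fasted for 12 hours and given APAP (300 mg/kg) for 12 hours, or saline. The Methods name male C57BL/6J mice aged 8 to 10 weeks, and the labels give neither sex nor age. The samples comprise 3 livers per group, of which 2 APAP libraries (replicates 1 and 3) and 3 saline libraries (WT1, WT2 and WT3) were analysed. APAP replicate 2 was not analysed here, and WT1, WT2 and WT3 were taken for saline livers since the rest of the columns bear the name of APAP. The labels do not say that the samples of a group are separate animals, so P values measure the spread between these samples only.

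The total count was between 13378445 and 15976339 per library. Values are given as CPM, counts per 1000000 of a library size that was normalized by TMM in edgeR. The TMM factor was lowest in WT1 (0.783) and highest in APAP replicate 1 (1.27). The groups were separated by sex-linked genes in all 5 libraries. Xist was at 0.763 and 1.73 CPM after APAP and 289, 913 and 881 CPM after saline, Ddx3y at 78.8 and 61.6 CPM against 0, 0 and 0.0668 CPM, and Eif2s3y at 51.8 and 35.4 CPM after APAP and 0 counts in all saline libraries. By these genes the saline libraries had the female pattern and the APAP libraries the male pattern, although the Methods name male mice. Sex and treatment therefore cannot be told apart in any value below. Alb, the main secretory transcript of hepatocytes, was at 51454 and 89715 CPM after APAP and 129058, 95019 and 120301 CPM after saline, so the liver label was borne out by its defining transcript in every library. In whole liver, fewer cells of a type and less RNA per cell cannot be told apart.

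Most subunits of the 26S proteasome lay somewhat higher with APAP, while the inducible catalytic subunits lay lower. Of the 31 subunits of the 26S proteasome (20S core without Psma8, base and lid), 27 had a positive log2 fold change, with a median of 0.32 and a range of -0.22 to 0.69, beside a median of 0.03 and 52.0% positive over the 13734 genes tested. Both APAP libraries were above all saline libraries in 21 of the 31 (67.7%), and none was below all of them. Over all genes tested, the groups did not overlap with APAP higher in 23.9% and with APAP lower in 20.2%. The 31 subunits together made up 0.398% and 0.350% of all counts after APAP and 0.221%, 0.233% and 0.235% after saline, a ratio of means of 1.63. Summed as CPM they were at 3125 and 3209 with APAP against 2821, 2379 and 2504 with saline, a ratio of means of 1.23. On both scales the APAP libraries lay above every saline library.

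The differences of single genes did not pass the test after adjustment. After Benjamini-Hochberg adjustment of the quasi-likelihood test of edgeR, 0 of the 48 genes had an adjusted p under 0.05 in either direction, beside 3.7% of all genes tested that were higher and 3.53% that were lower. At an unadjusted P under 0.05, 7 genes were higher and 3 were lower with APAP. The share of all genes at this threshold alone was not counted, so these numbers have no background here. With a fold change of at least 1.5 in addition, 5 were higher (10.4%, beside 12.3% of all genes), Psma5, Psmc4, Psmd4, Psmd8 and Psmd14, and 3 were lower (6.25%, beside 11.2%), Psmb8, Psmb10 and Psme2. Both shares were below the background. The exact test and the likelihood ratio test of edgeR also gave 0 of 48 (beside 12.9% and 13.4% of all genes in either direction). DESeq2 gave 3 higher, Psmc4, Psmd4 and Psmd14, and 0 lower, beside 6.83% of all genes that were higher.

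The scaling bears on these counts. Scaled to library size only, the median log2 fold change of all genes was 0.42 and 74.0% of them were positive. On that scale all 31 subunits of the 26S proteasome were positive with a median of 0.72, which was 0.30 above the median of all genes, and 8 proteasome genes were higher at an adjusted p under 0.05 in the quasi-likelihood test (beside 7.59% of all genes). They were Psma5, Psmc4, Psmd2, Psmd3, Psmd4, Psmd8, Psmd13 and Psmd14.

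**Figure D1:**
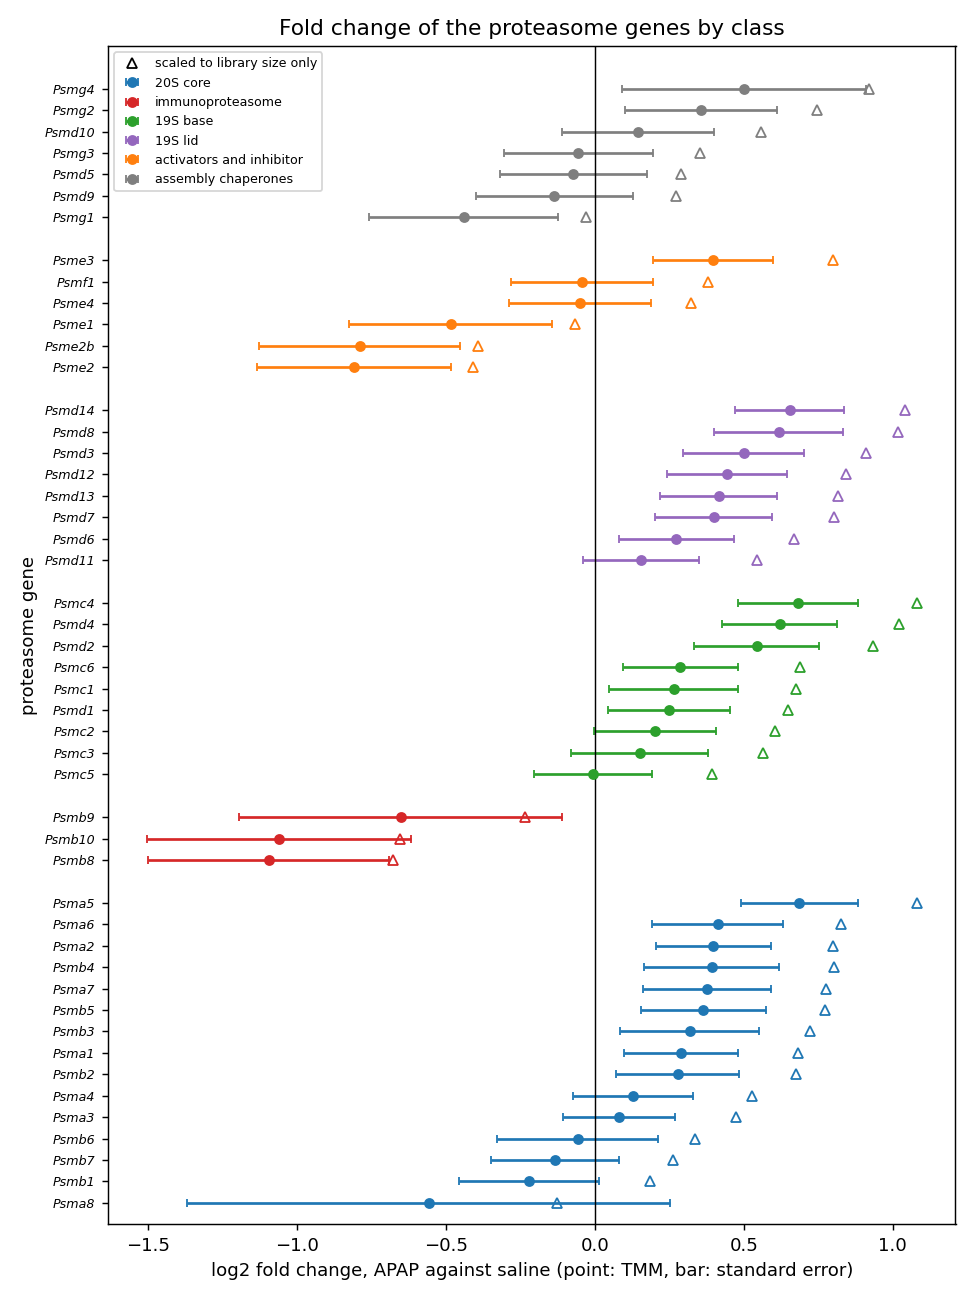
Log2 fold change of each of the 48 proteasome genes, APAP against saline, grouped by class. Points with bars are the TMM-normalized fold change with its standard error, and open triangles the fold change scaled to library size only. All 8 lid genes lie right of 0, between 0.16 and 0.65, and the immunoproteasome genes lie between -1.10 and -0.65.

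The lid was the most even class. The APAP libraries lay above all saline libraries in 8 of its 8 genes, with a median log2 fold change of 0.43 and a range of 0.16 to 0.65. Summed over the lid, the level was 817 and 804 CPM after APAP and 624, 556 and 619 CPM after saline. Psmd14, the metalloprotease that cuts the ubiquitin chain from the substrate, was at 68.0 and 67.3 CPM after APAP (67.6 ± 0.472, SD, n = 2) and at 40.5, 42.5 and 46.0 CPM after saline (43.0 ± 2.78, SD, n = 3). The libraries of each group lay close together and the groups did not overlap. The log2 fold change was 0.65 (SE 0.18), with the lowest adjusted p of all proteasome genes, 0.0821, in the quasi-likelihood test. Psmd8 was at 159.9 and 169 CPM after APAP and 116, 91.5 and 114 CPM after saline, a log2 fold change of 0.62 (SE 0.22, adjusted p = 0.139 by edgeR). At the other end of the class, Psmd11, which helps to hold the lid to the core, was at 98.1 and 109.6 CPM against 95.2, 90.2 and 94.5 CPM, a log2 fold change of 0.16 (SE 0.20, adjusted p = 0.674 by edgeR). Its groups did not overlap either, but by a gap much smaller than that of Psmd14. Between these lay Psmd3 (0.50), Psmd12 (0.45), Psmd13 (0.42), Psmd7 (0.40) and Psmd6 (0.27).

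In the base, 8 of 9 genes had a positive log2 fold change, 6 were separated with APAP higher, and the median was 0.27. The class held its highest value in an ATPase. Psmc4 was at 112 and 111 CPM after APAP (112 ± 0.57, SD, n = 2) and at 73.1, 61.1 and 74.8 CPM after saline (69.7 ± 7.46, SD, n = 3). No saline library came near the APAP libraries, and the log2 fold change was 0.68 (SE 0.20, adjusted p = 0.0926 by edgeR). Its neighbour in the same ATPase ring, Psmc5, was at 71.1 and 75.4 CPM against 80.0, 65.8 and 75.1 CPM, and here the groups overlapped throughout, with a log2 fold change of -0.01 (SE 0.20, adjusted p = 0.991 by edgeR). Of the 6 ATPases, 3 were separated with APAP higher (Psmc1, Psmc4 and Psmc6), and the median over the 6 was 0.23.
The 3 base subunits without ATPase activity were all separated with APAP higher, and their sum was at 434 and 458 CPM after APAP and 345, 309 and 326 CPM after saline. Psmd4, a receptor for ubiquitin chains, was at 104 and 96.9 CPM against 66.4, 60.6 and 69.1 CPM, a log2 fold change of 0.62 (SE 0.19, adjusted p = 0.104 by edgeR). Psmd2, a large scaffold that docks proteins with ubiquitin-like domains, was at 176 and 202 CPM against 139, 127 and 124 CPM, a log2 fold change of 0.54 (SE 0.21, adjusted p = 0.167 by edgeR). Psmd1, the other large scaffold, was at 0.25 (SE 0.20).

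In the 20S core, 11 of 15 genes were positive and 7 were separated with APAP higher, with a median of 0.29. The alpha ring accounted for 5 of these 7. Psma5 was at 25.2 and 28.9 CPM after APAP and 18.5, 15.7 and 16.2 CPM after saline, the highest log2 fold change of all 48 genes, 0.69 (SE 0.20, adjusted p = 0.0855 by edgeR). The groups did not overlap. This count is uncertain, because 55.4% of the 50-base words of its transcript also occur in other genes, chiefly in Gm8394, which itself had 348 and 359 counts with APAP and 187, 229 and 184 counts with saline. Apart from Psma8, the alpha gene with the lowest value was Psma3, at 0.08 (SE 0.19).
The constitutive beta subunits were mixed. Psmb4 (0.39, SE 0.23) and the chymotrypsin-like subunit Psmb5 were the beta genes with separated groups. Psmb1, a structural subunit, had the lowest value among the 31 subunits, at 95.5 and 108 CPM after APAP and 143, 109 and 104 CPM after saline, a log2 fold change of -0.22 (SE 0.24, adjusted p = 0.613 by edgeR), with overlap between APAP replicate 3 and WT3.

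**Figure D2:**
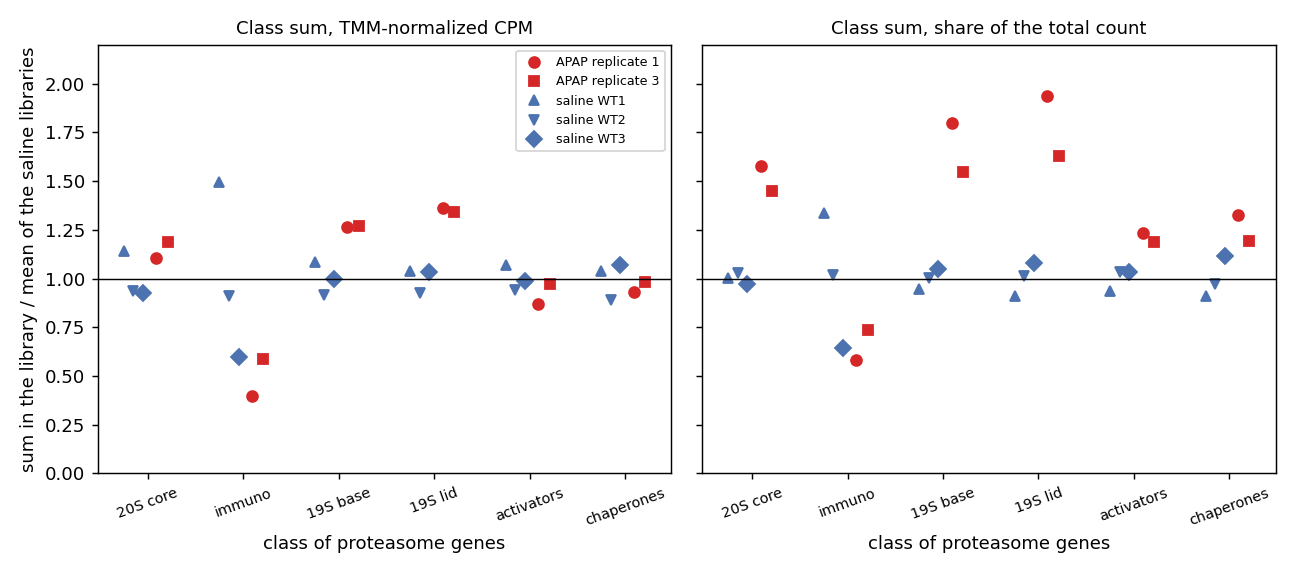
Sum of each class of proteasome genes in each library, divided by the mean of the saline libraries, as TMM-normalized CPM (left) and as share of the total count (right). The lid and the base of the APAP libraries lie above all saline libraries in both panels. On the left, the summed immunoproteasome genes of WT3, at 31.4 CPM, lie next to those of APAP replicate 3, at 30.9 CPM. On the right, those of APAP replicate 3, at 0.00337% of all counts, lie above those of WT3, at 0.00294%.

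The inducible catalytic subunits of the immunoproteasome lay lower with APAP, and the saline libraries were far apart in them. Psmb8, which takes the place of Psmb5, was at 8.39 and 12.2 CPM after APAP (10.3 ± 2.67, SD, n = 2) and at 33.1, 19.05 and 13.9 CPM after saline (22.0 ± 9.97, SD, n = 3). WT1 was by far the highest and WT3 lay only a little above APAP replicate 3, so with TMM the groups were separated by a narrow gap. The log2 fold change was -1.10 (SE 0.40, adjusted p = 0.154 by edgeR), the lowest of all 48 genes. Without WT1 it was -0.67, without WT3 it was -1.34 and without APAP replicate 3 it was -1.40. Psmb10, which takes the place of Psmb7, was at 7.86 and 14.5 CPM after APAP and 35.7, 19.6 and 14.8 CPM after saline, in the same order of libraries. Its log2 fold change was -1.06 (SE 0.44, adjusted p = 0.199 by edgeR), and leaving out 1 library moved it between -1.58 and -0.61. With library size only the groups of Psmb10 overlapped too, at 15.8 CPM in APAP replicate 3 and 13.9 CPM in WT3.
Psmb9, which takes the place of Psmb6, was at 4.69 and 4.20 CPM after APAP and 9.41, 8.96 and 2.67 CPM after saline, so WT3 was below both APAP libraries. The log2 fold change was -0.65 (SE 0.54, adjusted p = 0.509 by edgeR). Summed, the inducible subunits were at 20.9 and 30.9 CPM after APAP and 78.3, 47.7 and 31.4 CPM after saline, a ratio of means of 0.494. As a share of all counts the ratio of means was 0.659, and APAP replicate 3 (0.00337%) lay above WT3 (0.00294%). Psmb8 lies on chr17:34197721-34201454 and Psmb9 on chr17:34181988-34187764 of GRCm38, in the same gene cluster, and Psmb10 on chr8:105935728-105938392.

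The constitutive partners did not show this order. Psmb5 was at 81.2 and 83.0 CPM after APAP and 74.4, 56.6 and 60.5 CPM after saline, without overlap, a log2 fold change of 0.36 (SE 0.21, adjusted p = 0.337 by edgeR). Psmb6, the caspase-like subunit, was at 85.5 and 123 CPM against 133, 93.6 and 99.3 CPM (log2 fold change -0.06, SE 0.27, adjusted p = 0.923 by edgeR), and Psmb7, the trypsin-like subunit, at 92.7 and 110.2 CPM against 124, 103 and 107 CPM (-0.13, SE 0.21, adjusted p = 0.749 by edgeR). Both overlapped between groups.
Within each library, a ratio of partner genes does not depend on the scaling. The count of Psmb8 was 10.3% and 14.7% of that of Psmb5 with APAP and 44.5%, 33.6% and 23.0% with saline, 2.64-fold lower with APAP as a mean of log ratios, and the groups did not overlap. For Psmb10 and Psmb7 the ratio was 8.48% and 13.2% against 28.9%, 19.02% and 13.9%, 1.86-fold lower and also without overlap. For Psmb9 and Psmb6 it was 5.49% and 3.40% against 7.05%, 9.57% and 2.69%, with overlap. The exact two-sided permutation test gave p = 0.2 for the first and the second pair, which is the smallest p that 2 against 3 libraries can give, and p = 0.6 for the last (0.3, 0.3 and 0.6 after adjustment over the 3 pairs). This test cannot reach 0.05 with these libraries.

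**Figure D3:**
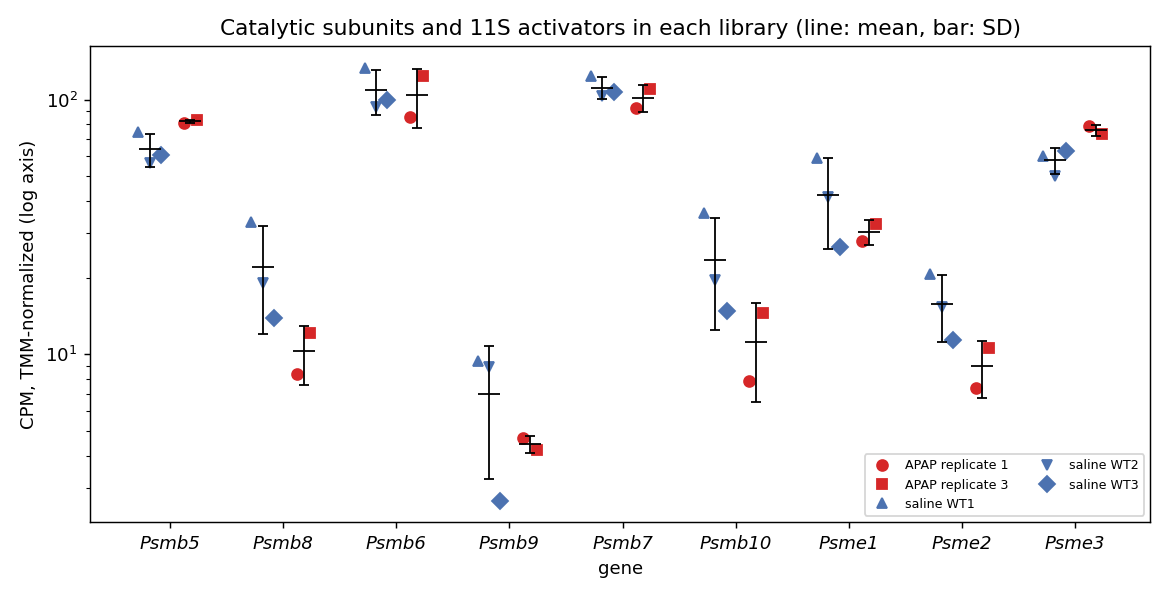
CPM of the constitutive catalytic subunits beside their inducible partners, and of the 11S activators, in each library, on a log axis (horizontal line, mean; bar, SD). Psmb8 and Psmb10 spread from 33.1 and 35.7 CPM in WT1 down to 8.39 and 7.86 CPM in APAP replicate 1, whereas Psmb5 and Psme3 are higher in both APAP libraries than in every saline library.

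Among the activators, the genes of the interferon-induced 11S ring and the nuclear 11S gene lay on opposite sides of 0. Psme1, the alpha subunit of the 11S ring, was at 27.9 and 32.6 CPM after APAP and 59.2, 41.5 and 26.5 CPM after saline, so that WT3 was below both APAP libraries (log2 fold change -0.48, SE 0.34, adjusted p = 0.435 by edgeR). Psme2, the beta subunit, was at 7.39 and 10.6 CPM against 20.7, 15.3 and 11.4 CPM, with a narrow gap between WT3 and APAP replicate 3 (-0.81, SE 0.33, adjusted p = 0.184 by edgeR). As in the inducible catalytic subunits, WT1 was the highest library and WT3 the lowest of the saline libraries. Scaled to library size only, the groups of Psme2 overlapped, at 11.6 CPM in APAP replicate 3 and 10.7 CPM in WT3.
Psme2b, a copy of Psme2, was at 21.9 and 32.9 CPM against 62.9, 47.8 and 31.8 CPM (-0.79, SE 0.34, adjusted p = 0.206 by edgeR). Of the 50-base words of Psme2b, 69.3% occur in other genes, chiefly in Psme2, and of those of Psme2, 59.3%, chiefly in Psme2b, so the counts of these genes are uncertain. Their sum was at 29.3 and 43.5 CPM after APAP and 83.6, 63.1 and 43.3 CPM after saline. On the sum WT3 lay just below APAP replicate 3, so the separation seen for Psme2 alone did not hold.
Psme3, which forms a nuclear ring that works without ubiquitin, was at 78.5 and 73.2 CPM against 59.9, 50.2 and 62.9 CPM, with both APAP libraries above all saline libraries (0.40, SE 0.20, adjusted p = 0.280 by edgeR). Psme4, a large single-chain activator, was at 135 and 165 CPM against 137, 147 and 183 CPM (-0.05, SE 0.24, adjusted p = 0.923 by edgeR). The proteasome inhibitor Psmf1 was at 25.9 and 18.1 CPM against 25.9, 20.6 and 21.6 CPM (-0.04, SE 0.24, adjusted p = 0.934 by edgeR). In both of these the APAP libraries lay on either side of the saline median.

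The assembly chaperones, which help to place the subunits, lay around 0. Of the 7, 3 were positive, 1 was separated with APAP higher, and the median log2 fold change was -0.06. Psmg2, a chaperone of the alpha ring, was at 9.39 and 10.6 CPM after APAP and 8.33, 8.43 and 6.61 CPM after saline, without overlap (0.36, SE 0.26, adjusted p = 0.441 by edgeR). Its partner Psmg1 was at 10.1 and 12.8 CPM against 21.1, 14.3 and 11.2 CPM, the lowest value of the class (-0.44, SE 0.32, adjusted p = 0.442 by edgeR). The highest was Psmg4, at 5.28 and 5.99 CPM against 5.46, 2.32 and 4.21 CPM (0.50, SE 0.41, adjusted p = 0.503 by edgeR), with WT1 between the APAP libraries. The chaperones of the base, Psmd5 (-0.07), Psmd9 (-0.14) and Psmd10 (0.14), and Psmg3 (-0.06) all overlapped between groups. Summed, the class was at 113 and 119 CPM after APAP and 126, 108 and 129 CPM after saline.

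Per length of transcript, the inducible subunits were expressed below every subunit of the 26S proteasome in the APAP livers, and below most of them in the saline livers. The median over the 31 subunits was 59.4 CPM per kb with APAP and 48.2 CPM per kb with saline. The highest level with saline was that of Psmb6, 136 CPM per kb, and the lowest of the 31 was that of Psma5, 13.6 CPM per kb. The inducible subunits had a median of 6.31 CPM per kb with APAP and 13.5 CPM per kb with saline, while the median of their constitutive partners was 91.3 and 96.0 CPM per kb. Psmb9, at 3.29 and 5.19 CPM per kb, was the lowest of the 48 genes after Psma8, which lay at 0.332 and 0.491 CPM per kb. The assembly chaperones, which are not part of the finished particle, had a median of 9.59 and 7.44 CPM per kb.

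**Figure D4:**
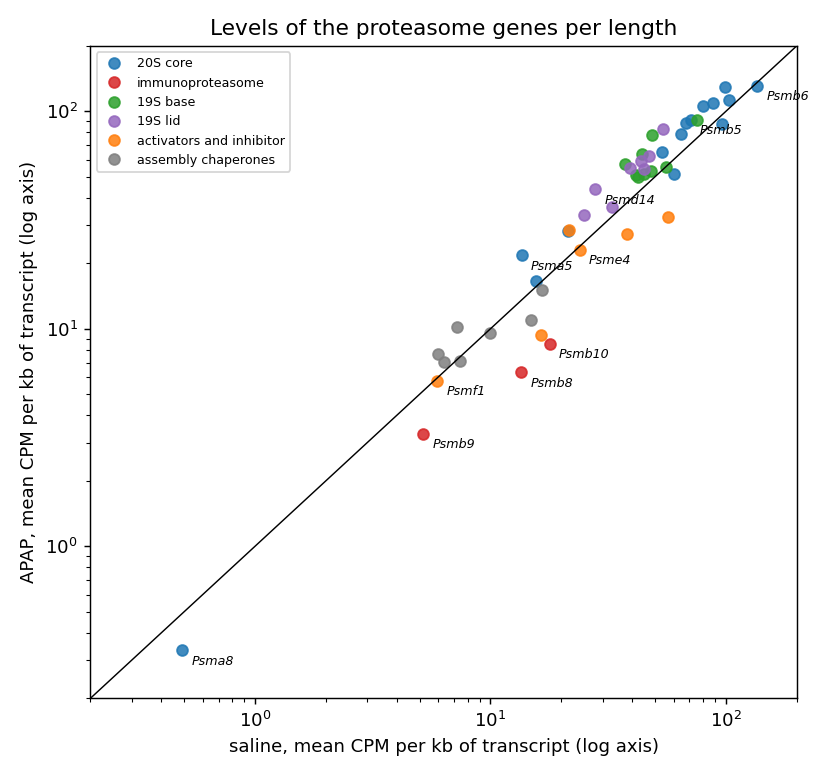
Mean level of each proteasome gene in CPM per kb of transcript, saline (x axis) against APAP (y axis), on log axes with the line of equal level. Lid and base genes lie above the line except Psmc5, at 55.7 CPM per kb with APAP and 55.9 CPM per kb with saline, and the immunoproteasome genes lie below it.

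The separation was also present in subunits with little sequence in common with other genes. In 18 of the 31 subunits, under 5% of the 50-base words of the transcript occurred in another gene and no exon overlapped one. Of these, 15 were positive, 13 were separated with APAP higher (72.2%), and the median was 0.38. Psmc4, Psmd4 and Psmd8 shared no word, and Psmd14 shared 1.61%. The most shared of the 31 were Psmb5 (57.1%), Psmb3 (55.8%) and Psma5, whose counts are uncertain. Psmb7 overlaps Nek6 and Psmd13 overlaps Sirt3 on the opposite strand, and Psmb9 overlaps Tap1. The strand setting of the counting is not given in the sources used here, so reads of these pairs cannot be told apart.

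Genes that work with the proteasome were read from further lists. The remaining subunits and bound factors, whose symbols do not follow the Psm pattern, comprised 9 tested genes with 0 at an adjusted p under 0.05 by edgeR, 3 separated with APAP higher (beside 23.9% of all genes tested) and 1 lower (beside 20.2%), and a median log2 fold change of 0.18. Usp14, a deubiquitinase that docks on the base, was at 57.4 and 60.4 CPM after APAP and 33.8, 38.0 and 41.3 CPM after saline, without overlap (0.64, SE 0.19, adjusted p = 0.0926 by edgeR). The ubiquitin receptor Adrm1 was at 61.9 and 65.6 CPM against 64.3, 45.7 and 54.8 CPM (0.22), the small lid subunit Sem1, listed as Shfm1, at 36.9 and 31.4 CPM against 31.7, 38.8 and 29.3 CPM (0.04), and the core maturation factor Pomp at 43.6 and 70.3 CPM against 74.6, 57.2 and 50.5 CPM (-0.09). These 3 overlapped between groups. Usp14 lies outside the rule for named genes and was chosen after its values were seen.

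Of 32 tested genes that deliver substrates to the proteasome or regulate its genes, 14 were separated with APAP higher (beside 23.9% of all genes tested) and 3 lower (beside 20.2%), 24 were positive, and the median was 0.26. By edgeR's quasi-likelihood test, 2 of them rose at an adjusted p under 0.05 (beside 3.7% of all genes) and 0 fell (beside 3.53%). Zfand2a, a stress-induced protein that binds the 19S particle, was at 88.0 and 106.7 CPM after APAP and 8.33, 10.6 and 12.95 CPM after saline. No saline library came near the APAP libraries, and the log2 fold change was 3.20 (SE 0.25, adjusted p = 0.00194 by edgeR). Sqstm1, the receptor p62 that carries ubiquitinated proteins to autophagy, was at 889.8 and 1024 CPM against 492, 331 and 302 CPM, without overlap (1.35, SE 0.30, adjusted p = 0.0443 by edgeR). The call of Zfand2a held in every alternative that was run. That of Sqstm1 was lost with RLE size factors (adjusted p = 0.0564 by edgeR) and without APAP replicate 1 (0.154), APAP replicate 3 (0.155), WT2 (0.179) or WT3 (0.0883), which left 1 pathway gene.
The transcription factors known to induce proteasome genes did not pass the test. Nfe2l1, which raises them when the proteasome is inhibited, was at 35.2 and 32.7 CPM after APAP and 134, 33.8 and 43.5 CPM after saline, where WT1 stood far from the other libraries (-1.05, SE 0.59, adjusted p = 0.323 by edgeR). Nfe2l2, the regulator of the antioxidant response, was at 97.1 and 75.6 CPM against 71.6, 64.2 and 74.1 CPM, with a narrow gap between APAP replicate 3 and WT3 (0.30, SE 0.21, adjusted p = 0.427 by edgeR). Ddi2 and Ngly1, which act on the Nfe2l1 protein and were chosen after their values were seen, lay lower with APAP without overlap. Other genes of the same list did not lie lower, among them Vcp (0.45, without overlap), Syvn1 (0.74, with overlap) and Sel1l (0.02, with overlap). The protease Ddi2 was at 177 and 178 CPM against 199, 250.02 and 350 CPM (-0.59, adjusted p = 0.279 by edgeR), and the glycanase Ngly1 at 33.0 and 34.7 CPM against 51.2, 44.5 and 58.5 CPM (-0.60, adjusted p = 0.132 by edgeR).

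The inducible subunits supply peptides to MHC class I, and genes of that route were read beside them. Of 12 tested genes, 5 were separated with APAP lower (beside 20.2% of all genes tested) and 1 with APAP higher (beside 23.9%), with a median log2 fold change of -0.19 and 0 at an adjusted p under 0.05 by edgeR. B2m, the light chain of MHC class I, was at 742 and 801 CPM after APAP and 1800, 1573 and 1490 CPM after saline (-1.07, SE 0.28, adjusted p = 0.0663 by edgeR), and H2-K1, a class I heavy chain, at 563 and 525 CPM against 1282, 890 and 983 CPM (-0.95, SE 0.29, adjusted p = 0.0976 by edgeR). In B2m and H2-K1 the saline libraries stood clear of the APAP libraries. The other heavy chain on the list, H2-D1, overlapped between groups, at 681 and 578 CPM against 798, 571 and 716 CPM (-0.14). Ifngr1, a receptor chain for interferon gamma, was the gene separated with APAP higher (0.57, adjusted p = 0.215 by edgeR). The peptide transporter Tap1, which lies beside Psmb9, was at 11.5 and 10.7 CPM against 11.9, 14.1 and 8.68 CPM (-0.05), with overlap. Of the interferon pathway, Irf1 was at 17.9 and 13.8 CPM against 15.4, 18.3 and 10.5 CPM (0.11), and Ifng had 0 counts in every library. B2m, H2-K1, H2-D1, Ifngr1, Tap1 and Irf1 were chosen after their values were seen.

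Leukocytes express the inducible subunits constitutively, so their markers were read in the same libraries. Markers of neutrophils summed to 103 and 70.5 CPM after APAP and to 4.03, 4.65 and 7.74 CPM after saline, and 5 of the 5 tested rose at an adjusted p under 0.05 by edgeR. Markers of monocytes summed to 48.2 and 51.5 CPM against 11.8, 10.7 and 10.1 CPM, and 3 of 5 rose. Markers of T and NK cells summed to 3.93 and 4.14 CPM against 5.73, 5.04 and 4.14 CPM, those of B cells to 3.40 and 3.83 CPM against 5.11, 7.43 and 2.07 CPM, those of dendritic cells to 5.16 and 3.46 CPM against 1.97, 6.04 and 7.81 CPM, and those of Kupffer cells to 197 and 368 CPM against 271, 191 and 221 CPM. The neutrophil and monocyte sums lay higher with APAP, and Psmb8 and Psmb10 lower. The sums of the lymphocyte, dendritic and Kupffer lists overlapped between groups or met at the edge. Within the Kupffer list, Marco lay higher with APAP (2.49) and Vsig4 lower (-0.57), both without overlap. Markers of endothelial cells (78.9 and 120 CPM against 138, 142 and 85.9 CPM) and of stellate cells (254 and 319 CPM against 395, 296 and 323 CPM) overlapped too, and hepatocyte markers summed to 64196 and 107103 CPM against 153416, 112429 and 138518 CPM. Most of the hepatocyte sum was Alb. Within that list, Ttr (-1.64), Cps1 (-0.90) and Alb (-0.70) lay lower with APAP without overlap, while Apoa1 (0.57) and Serpina1a (-0.23) overlapped. The part of any of these cells in the proteasome values was not tested.

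The promoters of the proteasome genes were searched for 4 motifs, because the 26S genes lay higher together and the inducible ones lower. Windows from 250 bases before to 50 bases after the start site (RefSeq, GRCm38.p6) were found for 40 of the 48 genes, and both strands were searched. TGACNNNGC, the core of the antioxidant response element bound by Nfe2l1 and Nfe2l2, was present in 6 of 40 proteasome genes (15%) and in 14.0% of 27025 genes in all. The interferon-stimulated response element, read as TTTC, any 2 bases and TTTC, was present in 5 of 40 (12.5%) against 3.99%, and TTCNNNGAA, the gamma-activated site, in 3 of 40 (7.5%) against 9.55%. CCAAT was present in 13 of 40 (32.5%) against 41.1%. Among Psmb8, Psmb9, Psmb10, Psme1 and Psme2, the interferon-stimulated response element was found in Psme1 and the gamma-activated site in Psmb8 within these windows, and the antioxidant response element in none. The windows below show a match, in capitals, in each catalytic or 11S gene that had one of the antioxidant, interferon or gamma-activated motifs. Psmd4, a gene of the base whose level was higher with APAP, is shown as a further gene with the interferon element. Psmb3 (log2 fold change 0.32), Psmd9 (-0.14) and Psmg4 (0.50) also held that element and are not shown. Bases run 5′ to 3′ along the strand of the gene.
Psmb5: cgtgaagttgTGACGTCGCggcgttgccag
Psmb6: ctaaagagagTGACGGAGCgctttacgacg
Psmb8: tcctccgctgTTCCCAGAAgatgccccccc
Psme1: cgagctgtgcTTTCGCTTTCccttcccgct
Psmd4: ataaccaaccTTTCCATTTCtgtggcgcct
The match in Psmb5 starts at position -47 from the start site (chr14:54618023-54618052, minus strand) and that in Psmb6 at -9 (chr11:70525338-70525367, plus strand), and both are antioxidant elements. The gamma-activated site of Psmb8 starts at -97 (chr17:34198088-34198117, plus strand), and the interferon elements of Psme1 and Psmd4 at 10 (chr14:55578493-55578522, plus strand) and at -80 (chr3:95042675-95042704, minus strand). Psmb5 and Psmb6 thus carry the same motif near the start, with log2 fold changes of 0.36 and -0.06. Psmc6 (0.29), Psmd12 (0.45), Psmd9 (-0.14) and Psme4 (-0.05) also held the antioxidant element and are not shown. A match describes letters in the window, and binding was not measured.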

How the data were processed

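Bulk RNA-Seq of liver was performed on an Illumina NovaSeq platform, and the authors deposited raw read counts per gene, obtained after alignment with HISAT2, together with FPKM. The builds GRCm38 and mm10 come from the submitters' processing notes, and the annotation and strand setting are not given in the sources used here. The counts of 2 APAP and 3 saline libraries were used. The 5 columns of FPKM were not used. Proteasome genes were classed by hand, and the genes and lists were chosen with earlier results of these data known.

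Tests were run with edgeR 4.0.16 in R 4.3.3 (filterByExpr with a minimum count of 10 and a minimum total of 15, TMM, quasi-likelihood test, Benjamini-Hochberg adjustment), which left 13734 genes and all 48 proteasome genes. The procedure was tested on simulated data. Named genes were the catalytic subunits, the activators, the highest and lowest fold change of each class, 5 pathway genes and pathway genes that passed the test. Groups were called not overlapping when both APAP libraries lay above, or below, all saline libraries. The floor of detection was set at 3 counts, which was between 0.176 and 0.269 CPM and accounts for counting error alone. Replicates of a group differed by more than counting noise (chi-square per degree of freedom of at least 44.1). Transcripts for shared 50-base words and length came from GENCODE M21. Alternatives were other size factors, DESeq2 1.42.0, the likelihood ratio and exact tests of edgeR, other filters, and each library left out. Python 3.11.15, scipy 1.17.1 and matplotlib 3.10.9 were used.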

Additional observations from a re-analysis of the deposited data

How the results depend on the processing

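Values below are log2 fold changes or numbers of genes, and all alternatives were run. No paired analysis was possible because no label ties the saline columns, named WT1 to WT3, to the numbered saline samples. The count of proteasome genes with an adjusted p under 0.05 (0, higher or lower) was 3 higher with DESeq2 and 8 higher with library size only, and stayed 0 with each library left out. Over all genes tested at an adjusted p under 0.05, 938 were higher and 1155 lower with DESeq2. With library size only, 1042 were higher and 297 lower, and with RLE size factors 478 and 506. The 5 genes higher at a fold change of 1.5 and unadjusted P under 0.05 stood beside 1696 of the 13734 genes tested. They became 3 with RLE size factors (beside 1573), 3 with DESeq2 (beside 1560) and 25 with library size only (beside 3338). Without WT2 they became 2, Psma5 and Psmd14 (beside 1296 of 13443), and without WT1 they became 6 (beside 1600 of 13700). The 3 lower genes (beside 1532 of 13734) became 1 with upper-quartile factors (beside 1405) and 0 with library size only (beside 731). They became 4, with Psme2b, with RLE size factors (beside 1642), DESeq2 (beside 1768), the likelihood ratio test (beside 1579) and the exact test (beside 1522). They were the same 4 with no filter (beside 1718 of 19935) and with at least 10 counts in every library (beside 1414 of 11686). Without WT1 they became 0 (beside 1476), without WT2 1, Psmb8 (beside 1173), and without WT3 6 (beside 1636 of 13481). With an APAP library left out that group has no replicate. The calls of those fits by fold change and unadjusted P are not given here. The next counts cover 41 genes, the 32 pathway genes and the 9 remaining subunits and bound factors. Of these, the genes with an adjusted p under 0.05 (2) became 1 with RLE, 4 with DESeq2 and 8 with library size only. They were between 1 and 2 with 1 saline library left out. The counts over all genes tested with RLE, DESeq2 and library size only are given above. With library size only, the medians were 0.68 for the 20S core, 0.68 for the base, 0.83 for the lid, 0.35 for the chaperones, 0.72 for the 31 subunits, 0.13 for the activators, which were at -0.27 with TMM, and -0.65 for the immunoproteasome, which was at -1.06 with TMM. With 1 library left out, they ranged from 0.18 to 0.40 (core), 0.19 to 0.33 (base), 0.38 to 0.49 (lid), -0.06 to 0.05 (chaperones), -0.41 to -0.14 (activators), -1.40 to -0.61 (immunoproteasome) and 0.28 to 0.42 (31 subunits). Library size only turned Psmb1 (0.19), Psmb6 (0.34), Psmb7 (0.26), Psmc5 (0.39), Psmd5 (0.29), Psmd9 (0.27), Psme4 (0.32), Psmf1 (0.38) and Psmg3 (0.35) positive. Psmc5 was also positive with upper-quartile factors (0.034) and with at least 10 counts in every library (0.011). Leaving out 1 library turned the sign of Psma3 (-0.019 to 0.17), Psma8 (-2.12 to 0.16), Psmb6 (-0.36 to 0.19), Psmc5 (-0.082 to 0.070), Psmd5 (-0.39 to 0.18), Psmd9 (-0.31 to 0.060), Psme4 (-0.21 to 0.090), Psmf1 (-0.32 to 0.18) and Psmg3 (-0.18 to 0.045). The within-library log2 difference ranged from -1.66 to -1.15 for Psmb8 and Psmb5, from -0.93 to -0.01 for Psmb9 and Psmb6, and from -1.21 to -0.58 for Psmb10 and Psmb7. Psma8, with 3 to 18 counts per library, was limited by depth and was not tested without WT3 or with at least 10 counts in every library.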
